A study of Mus musculus with 2 samples.

Results

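Cytochrome P450 enzymes (P450s) are haem proteins that insert 1 atom of oxygen into a substrate, with electrons passed to them by P450 reductase in the endoplasmic reticulum or by ferredoxin in mitochondria. In the ovary a few of them build the steroid hormones, and the others act on fatty acids, oxysterols, vitamin D, retinoids, bile acids and foreign compounds, mostly as known from liver, kidney and adrenal. The genes described here were all genes whose symbol begins with Cyp and a digit, without the core steroid, cholesterol and retinoid genes Cyp11a1, Cyp17a1, Cyp19a1, Cyp26b1 and Cyp51. The rule used no measured value and gave 68 of the 20752 genes on the array, in 14 P450 families and on 13 chromosomes. The families are numbered by protein sequence, and a letter after the number marks a subfamily.

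Ovaries of PNA (prenatally androgenized) mice were compared with ovaries of control mice on the Affymetrix Mouse Genome 430 2.0 array, with 1 array for each group. PNA mice were ICR females whose dams were given DHT (dihydrotestosterone, a potent androgen that cannot become estrogen), 350 µg in 70 µl of sesame oil under the skin each day on days 16 to 18 of gestation, and the dams of control mice, also ICR, were given only the oil. Each group held 5 ovaries. The labels place the removal of ovaries at diestrus, and the sources used here do not give the age of these mice or the way the 5 ovaries were combined. With 1 array for each group there was no spread between replicates, so no test was run and no difference below can be set against biological error. A log2 ratio is that of PNA over control signal, and a gene counted as higher or lower where its signals differed by at least 1.5-fold (0.585 on the log2 scale). A whole ovary was measured, and fewer cells of a type and less RNA per cell cannot be told apart.

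Both arrays were alike in the median and the 40th percentile of their signals. The median signal over all probe sets was 49.5 on the PNA array and 48.7 on the control array, and a floor was set at the 40th percentile of each array, at 30.65 for PNA and 30.45 for control. Markers of the ovary were present: all 12 granulosa, 7 theca, 9 corpus luteum and 10 oocyte markers measured lay above the floor. Marker lists with several members past 1.5-fold were those of neutrophils, with 4 higher of the 6 above the floor, and of the ovarian surface epithelium, with 3 higher of 8. The luteinizing hormone receptor Lhcgr, of the corpus luteum list, had a signal of 458.06 in PNA and 1245.69 in control ovaries (-1.44), while the other 8 markers of that list lay between -0.37 and 0.39 and the median of the list was 0.11. The part of these cell types in the P450 values was not tested.

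Most P450 genes outside core steroidogenesis gave little or no signal in the ovary. Of the 68 genes, 23 exceeded the floor on 1 or both arrays, which is 33.8% of them, against 68% of all genes, and 21 of these exceeded it on both. The other 45 gave signals of 5.54 to 30.2 on the PNA array and 5.66 to 28.2 on the control array, and no direction is given for them. For 6 of these 45 the signal was the same on both arrays to 3 digits. Signals of different genes are not compared here, since each probe set binds with its own strength.

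**Figure D1:**
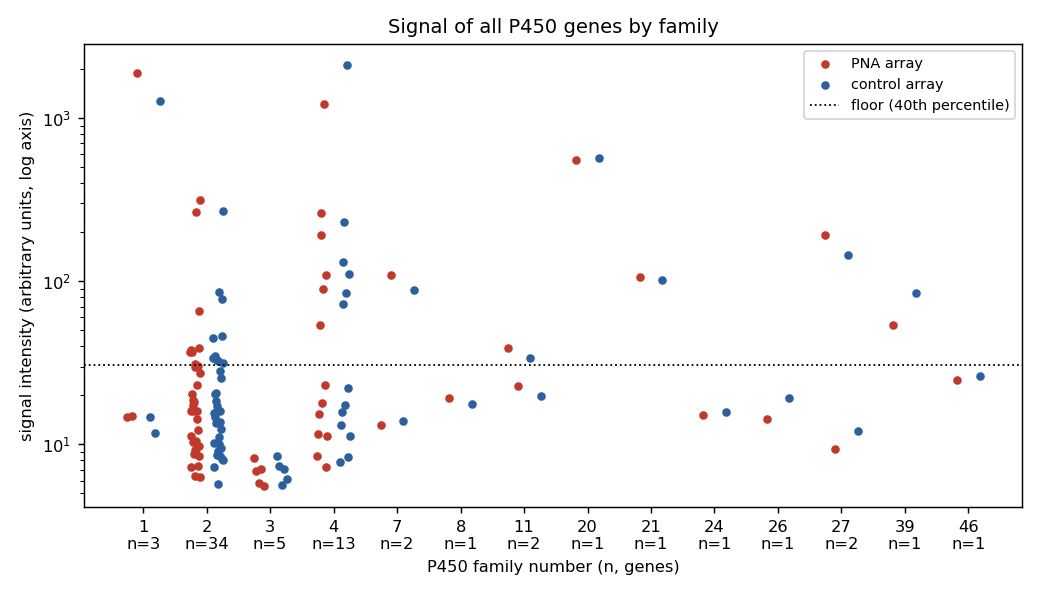
Signal intensity (log axis) of all 68 P450 genes by family number, PNA array in red on the left and control array in blue on the right of each family, with the floor as a dotted line. Family 2 holds 34 genes with 10 above the floor, and all 5 genes of family 3 lie under it on both arrays.

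Among the 23 genes above the floor, 1 was at least 1.5-fold higher in PNA ovaries (Cyp2d22), 2 were at least 1.5-fold lower (Cyp4f18 and Cyp39a1) and 20 lay between. Over all 14116 genes above the floor, 2.49% were higher and 2.16% were lower by the same criterion. In a list of 23 genes a single gene more or less moves the share by more than those percentages, so the counts do not set the P450 genes apart. The ratio was above 0 for 12 genes and under 0 for 11, and the median log2 ratio was 0.05 over the P450 genes and -0.01 over all genes.

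**Figure D2:**
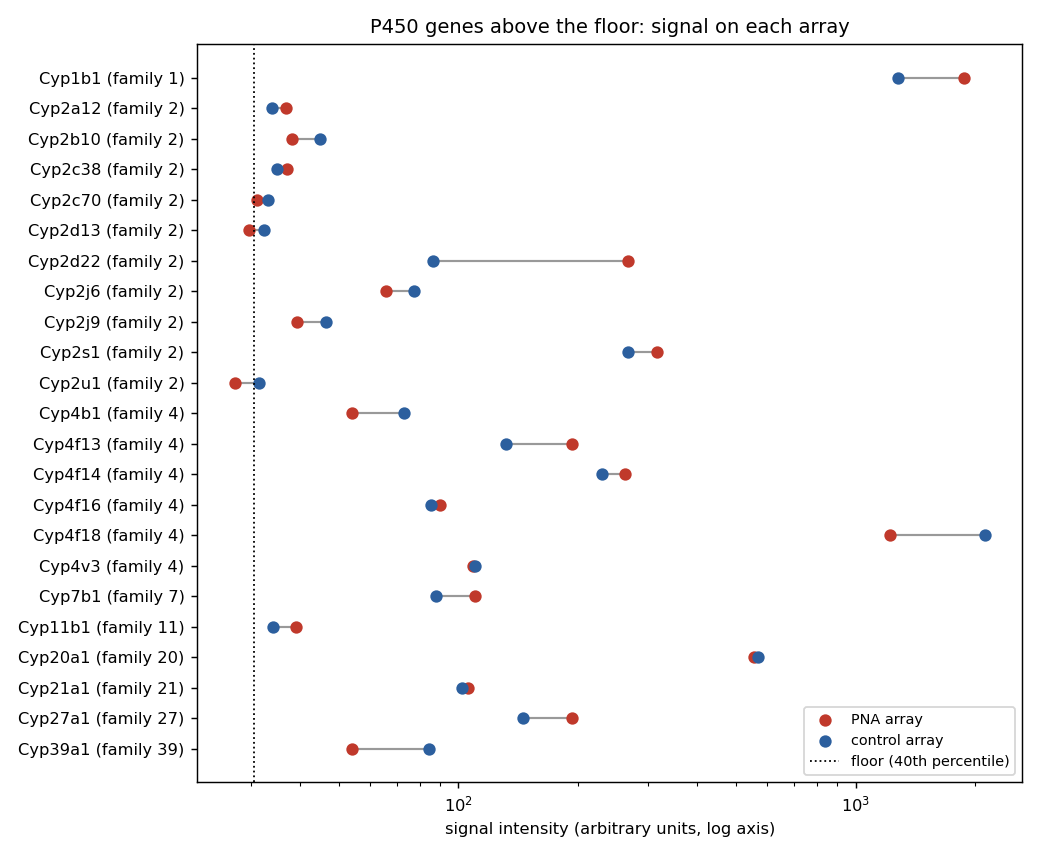
Signal intensity (log axis) of the 23 P450 genes above the floor, PNA in red and control in blue, joined by a line for each gene; the dotted line is the floor. The widest gaps are those of Cyp2d22 (267.46 in PNA, 86.5 in control) and Cyp4f18 (1220.43 in PNA, 2117.63 in control).

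Family 1 metabolises aromatic hydrocarbons and estrogens and is induced through AHR, the dioxin receptor. Cyp1b1, whose human counterpart hydroxylates estradiol to a catechol estrogen, gave a signal of 1879.45 in PNA and 1277.56 in control ovaries, a log2 ratio of 0.56 that lay just under the 1.5-fold criterion. A second probe set of Cyp1b1 gave 520.77 in PNA and 353.52 in control ovaries, with the same log2 ratio of 0.56, and the dimmest one was under the floor on both arrays, with 23.9 in PNA and 28.4 in control. Both bright probe sets were therefore higher on the PNA array by the same amount, and averaging all probe sets of the gene gave a log2 ratio of 0.29. Of the 1620 genes with a mean signal of 1000 or more, 95% had log2 ratios between -0.44 and 0.43, so the value of Cyp1b1 lay outside that range. Its probe set aligned to chr17:79706893-79715061 on the minus strand, in coordinates of the array annotation, whose build is not named in the sources used here. The other genes of the family, Cyp1a1 and Cyp1a2, which AHR also induces, were under the floor, Cyp1a1 at 14.71 on both arrays and Cyp1a2 at 14.95 in PNA and 11.78 in control ovaries.

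Cyp1b1 is shown with its promoter because its family is induced through AHR. Ahr gave a signal of 382.96 in PNA and 280.34 in control ovaries, a log2 ratio of 0.45. On the same list of receptors that control P450 genes, Tiparp gave 884.24 in PNA and 919.71 in control ovaries (-0.06), and Ahrr was under the floor on both arrays. A link between AHR and the Cyp1b1 value was not tested. The core motif bound by AHR and its partner ARNT, GCGTG, was searched on both strands of the RefSeq promoter (GRCm38.p6, chr17:79715012-79715311, minus strand, 250 bases before to 50 after the start of the gene). It was found once, on the strand opposite to the gene, and reads CACGC in capitals below, its first base lying 76 bases before the start.
Cyp1b1: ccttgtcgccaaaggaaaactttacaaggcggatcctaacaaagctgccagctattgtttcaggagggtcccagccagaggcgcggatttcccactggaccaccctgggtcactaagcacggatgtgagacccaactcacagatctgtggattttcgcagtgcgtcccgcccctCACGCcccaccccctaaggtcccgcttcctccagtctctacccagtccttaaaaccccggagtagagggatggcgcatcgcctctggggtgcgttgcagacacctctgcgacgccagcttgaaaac
The same 5 bases occur in 32.4% of all 32851 promoters of this length, in 14 of 54 promoters of the P450 genes (several genes have more than 1 start) and in 7 of the 19 promoters of P450 genes above the floor. The match is a description of the letters and not a binding site. Of the other motifs searched on both strands, the half-site of androgen and glucocorticoid receptors, AGAACA, occurred in 14 of 54 P450 promoters, in 3 of the 19 above the floor and in 19% of all promoters. The half-site shared by many nuclear receptors, AGGTCA, occurred in 13 of 54, in 1 of 19 and in 16.3% of all.

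Family 2 is the largest and holds many of the drug, steroid and fatty acid hydroxylases of the liver. It had 34 genes here, of which 10 lay above the floor, 1 was higher and 0 were lower. Cyp2d22, the mouse gene held to be closest to the human drug-metabolising enzyme CYP2D6, gave a signal of 267.46 in PNA and 86.5 in control ovaries. This was 3.09-fold higher in PNA, a log2 ratio of 1.63, and ranked 19 of 14116 genes from the highest ratio. A second probe set gave 217.13 in PNA and 97.3 in control ovaries, a log2 ratio of 1.16. The 2 probe sets differed by 0.47, more than the 0.31 that marks the 90th percentile of such differences over 5996 genes, and both were past 1.5-fold. Both aligned to chr15:82158039-82380257, on the minus strand, in the coordinates of the array annotation. This interval is much longer than those of the other Cyp2d genes, and what else lies in it was not examined.

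Cyp2d22 lies in a cluster of related genes, so its relatives on chromosome 15 were examined for the same difference. Of the other 7 Cyp2d genes, Cyp2d10, Cyp2d12, Cyp2d26, Cyp2d34, Cyp2d40 and Cyp2d9 were under the floor on both arrays, with signals of 6.44 to 15.99 in PNA and 5.72 to 15.99 in control ovaries. Cyp2d13 was above the floor on the control array only, with 29.8 in PNA and 32.5 in control ovaries, and its second probe set was under the floor on both. Thus no other Cyp2d gene stood clearly above the floor, and whether its probes also bind transcripts of related genes was not tested. Of 11 liver markers, 8 were under the floor on both arrays, among them albumin (Alb, at 13.8 in PNA and 14.5 in control ovaries). Apoa1 (472.96 in PNA, 366.46 in control) and Ttr (62.65 in PNA, 60.20 in control) lay above it on both arrays. Ahsg, a secreted liver protein, gave 65.96 in PNA and 22.85 in control ovaries, at least 2.17-fold higher in PNA against the floor.

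The remaining genes of family 2 above the floor lay between -0.24 and 0.24 on the log2 scale. Cyp2s1, a dioxin-inducible enzyme of epithelia, gave 316.40 in PNA and 267.88 in control ovaries, a log2 ratio of 0.24. Cyp2j6, of a subfamily that epoxidises arachidonic acid, gave 65.7 in PNA and 77.6 in control ovaries (-0.24), but its second probe set gave 37.4 in PNA and 36.2 in control (0.05), so its 2 probe sets had opposite signs. Its relative Cyp2j9 gave 39.2 in PNA and 46.4 in control ovaries (-0.24).

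Several other genes of the family lay close to the floor. Cyp2b10, the classical target of the receptor CAR, gave 38.0 in PNA and 44.8 in control ovaries, a log2 ratio of -0.24. Its other probe sets were under the floor on both arrays, with 8.34 and 7.68 in PNA and 8.76 and 6.91 in control ovaries. Cyp2a12 gave 36.9 in PNA and 33.96 in control ovaries (0.12), and Cyp2c38, an arachidonic acid epoxygenase, 37.0 in PNA and 34.96 in control (0.08). Cyp2c70, which forms the muricholic acids of mouse bile, gave 31.2 in PNA and 33.1 in control ovaries (-0.08). Cyp2u1, a fatty acid hydroxylase, was above the floor in control ovaries only, with 27.3 in PNA and 31.6 in control. A second probe set of Cyp2u1 was under the floor on both arrays. Genes with a mean signal under 50 had log2 ratios of -0.65 to 0.68 in 95% of cases, so none of these differences stood out from other dim genes. The 24 genes of the family under the floor on both arrays included Cyp2e1, which oxidises ethanol, Cyp2f2, Cyp2g1, the vitamin D 25-hydroxylase Cyp2r1, 8 of 10 Cyp2c genes (Cyp2c29, Cyp2c39, Cyp2c44, Cyp2c50, Cyp2c54, Cyp2c55, Cyp2c65 and Cyp2c68), 3 of 4 Cyp2b genes (Cyp2b9, Cyp2b13 and Cyp2b19), 3 of 5 Cyp2j genes (Cyp2j5, Cyp2j11 and Cyp2j13) and the 6 Cyp2d genes named above.

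Family 3 holds the main steroid and drug hydroxylases of liver and gut. All 5 genes measured (Cyp3a11, Cyp3a13, Cyp3a16, Cyp3a25 and Cyp3a44) were far under the floor, at 5.54 to 8.22 in PNA and 5.66 to 8.51 in control ovaries. One bright probe set that names Cyp3a11 together with other genes was left out by the single-symbol rule. It gave 1589.67 in PNA and 1608.98 in control ovaries and aligned to chromosome 13, where Prelid1 lies, and not to the Cyp3a cluster on chromosome 5.

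Family 4 hydroxylates fatty acids and eicosanoids, the signalling lipids made from arachidonic acid, at the end of the chain. Of its 13 genes 6 lay above the floor, with 1 lower and 0 higher. Cyp4f18, which inactivates the neutrophil attractant leukotriene B4 in mouse myeloid cells, gave a signal of 1220.43 in PNA and 2117.63 in control ovaries. It was 1.74-fold lower in PNA, a log2 ratio of -0.80, and ranked 171 of 14116 from the lowest ratio. Its mean signal was over 1000, where 2.53% of genes passed 1.5-fold in either direction. A second probe set of Cyp4f18 was under the floor on both arrays, with 16.6 in PNA and 17.5 in control ovaries, so the difference rested on 1 probe set, and averaging both probe sets gave a log2 ratio of -0.43, under the 1.5-fold criterion. That probe set aligned to chr8:71988481-72009628 on the minus strand.

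No other Cyp4f gene passed 1.5-fold. Cyp4f13 gave 193.53 in PNA and 132.07 in control ovaries, a log2 ratio of 0.55, just under the 1.5-fold criterion, from a single probe set aligned to chr17:32924688-32947402. Cyp4f14, another leukotriene B4 hydroxylase of the mouse, gave 263.03 in PNA and 230.42 in control ovaries (0.19). Cyp4f16 gave 89.97 in PNA and 85.4 in control ovaries (0.08), and its second probe set had a log2 ratio of 0.14. These 3 lie on chromosome 17 with Cyp4f15, Cyp4f39 and Cyp4f41-ps, which were under the floor, whereas Cyp4f18 lies alone on chromosome 8. The 4 Cyp4f genes above the floor thus had ratios from -0.80 to 0.55.

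The promoters of Cyp4f18 and Cyp4f13 are shown together because, within the Cyp4f subfamily, their ratios lay furthest apart. They come from RefSeq (GRCm38.p6, chr8:72009577-72009876 for Cyp4f18 and chr17:32947312-32947611 for Cyp4f13, both minus strand, 250 bases before to 50 after the start). Capitals mark the longest run of bases that the pair has in common, 11 bases long.
Cyp4f18: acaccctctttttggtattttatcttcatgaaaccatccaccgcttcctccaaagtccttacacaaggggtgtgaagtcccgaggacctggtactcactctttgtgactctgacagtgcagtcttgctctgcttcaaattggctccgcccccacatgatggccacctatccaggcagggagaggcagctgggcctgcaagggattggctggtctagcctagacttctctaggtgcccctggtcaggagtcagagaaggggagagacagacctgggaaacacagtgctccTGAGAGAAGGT
Cyp4f13: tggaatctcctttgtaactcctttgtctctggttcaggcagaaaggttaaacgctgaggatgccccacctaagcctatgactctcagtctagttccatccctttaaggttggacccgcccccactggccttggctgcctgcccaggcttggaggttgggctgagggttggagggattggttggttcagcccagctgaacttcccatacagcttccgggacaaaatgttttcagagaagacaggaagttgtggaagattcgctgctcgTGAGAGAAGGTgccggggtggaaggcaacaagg
The shared run begins at position 290 of the 300 bases in Cyp4f18 and at position 268 in Cyp4f13, so in both it lies after the start of the gene. It occurs on either strand in 15 of the 32851 promoters, the pair included. The run was picked because the pair shares it, so this count is a description of the letters and not evidence of a binding site. Neither promoter held any of the 3 receptor motifs searched.

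The other genes of family 4 differed less. Cyp4b1, which acts on fatty acids and on plant toxins, gave 54.0 in PNA and 73.0 in control ovaries, a log2 ratio of -0.44. Cyp4v3, a fatty acid hydroxylase, gave 108.75 in PNA and 110.42 in control ovaries (-0.02), and its second probe set gave -0.07. The Cyp4a genes measured (Cyp4a12a, Cyp4a14 and Cyp4a31), which PPARA induces in liver and kidney, and Cyp4x1 were under the floor.

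Because Cyp4f18 acts on leukotriene B4, the enzymes and receptors of the eicosanoid pathway were set beside it. Of 18 measured, 13 lay above the floor, with 0 higher and 1 lower, and their median log2 ratio was -0.08. Lta4h, which makes leukotriene B4, gave 898.39 in PNA and 951.24 in control ovaries (-0.08), and its receptor Ltb4r1 gave 52.9 on both arrays. The one lower gene was Ptgds, a prostaglandin D synthase, with 280.21 in PNA and 574.18 in control ovaries (-1.03). Of 11 neutrophil markers measured, 6 lay above the floor on 1 or both arrays and 4 of these were higher. S100a8 gave 176.35 in PNA and 54.0 in control ovaries and S100a9 158.15 in PNA and 46.7 in control. The other higher genes were dimmer: Lcn2 gave 51.29 in PNA and 31.16 in control, and Ngp 36.56 in PNA and 20.89 in control. Csf3r (0.42) and Ltf (0.06) did not pass 1.5-fold. Ngp, Csf3r and Ltf were above the floor on the PNA array only, so their ratios rest on a control signal under it. The summed signal of all 11 neutrophil markers measured was 574.62 in PNA and 288.32 in control ovaries, and the neutrophil granule genes Mpo, Elane and Camp were under the floor on both arrays. S100a8 and S100a9, the brightest of these markers on both arrays, made up most of the difference between the sums. Macrophage markers summed to 5980.36 in PNA and 5249.63 in control ovaries, with 1 of 10 (Cd14) past 1.5-fold. The part of these cells in the Cyp4f18 value was not tested.

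Families 7, 8, 27, 39 and 46 turn cholesterol into oxysterols and bile acids. Cyp39a1, which adds a 7-alpha hydroxyl group to 24-hydroxycholesterol, gave a signal of 54.0 in PNA and 84.5 in control ovaries. It was 1.56-fold lower in PNA, a log2 ratio of -0.65, and ranked 254 of 14116 from the lowest ratio. With an offset of 50 added to both signals its log2 ratio was -0.37, under the 1.5-fold criterion. It has 1 probe set, aligned to chr17:43667278-43750889 on the plus strand. Among genes with a mean signal of 50 to 100, 95% lay between -0.65 and 0.71 and 7.16% passed 1.5-fold, so Cyp39a1 lay at the edge of the range of dim genes.

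The other P450s of oxysterol metabolism above the floor, Cyp7b1 and Cyp27a1, had ratios above 0 that did not reach 1.5-fold. Cyp7b1, the oxysterol 7-alpha hydroxylase that also acts on dehydroepiandrosterone, gave 110.04 in PNA and 88.1 in control ovaries (0.32), and a second probe set gave 88.7 in PNA and 61.4 in control (0.53). Cyp27a1, the mitochondrial sterol 27-hydroxylase, gave 193.06 in PNA and 145.66 in control ovaries (0.41), and its second probe set was under the floor on both arrays. Cyp46a1, which makes the 24-hydroxycholesterol that Cyp39a1 uses, was under the floor, as were the bile acid enzymes Cyp7a1 and Cyp8b1. Of 15 further genes of oxysterol and bile acid metabolism measured, 8 lay above the floor, 0 were higher or lower and the median log2 ratio was 0.00. The cholesterol 25-hydroxylase Ch25h, which is not a P450, gave 47.78 in PNA and 59.43 in control ovaries (-0.31). Of these genes the cholesterol exporter Abca1 had the most negative ratio, with 3032.48 in PNA and 4392.57 in control ovaries (-0.53).

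Families 11 and 21 complete the corticosteroids in the adrenal. Cyp21a1, the steroid 21-hydroxylase, gave 105.99 in PNA and 102.35 in control ovaries, a log2 ratio of 0.05. A second probe set of Cyp21a1 was under the floor on both arrays, with 22.71 in PNA and 25.51 in control ovaries. Cyp11b1, the 11-beta hydroxylase of glucocorticoid synthesis, gave 39.0 in PNA and 34.1 in control ovaries (0.20), close to the floor, and the aldosterone synthase Cyp11b2 was under it. Both differences were small beside the spread over genes of like signal. Of 7 adrenal markers measured, 4 lay above the floor. Among them were Nr5a1 (637.45 in PNA, 596.93 in control ovaries) and the medullary genes Dbh (110.91 in PNA, 110.69 in control) and Pnmt (104.03 in PNA, 115.16 in control). The corticotropin receptor Mc2r and the medullary genes Th and Chga were under the floor on both arrays. Akr1b7, on the same list, gave 279.93 in PNA and 42.5 in control ovaries.

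The vitamin D hydroxylases Cyp2r1, Cyp24a1 and Cyp27b1, and Cyp26a1, the 1 retinoid P450 of family 26 that the rule kept, were under the floor on both arrays. The 1-alpha hydroxylase Cyp27b1 gave 9.41 in PNA and 12.1 in control ovaries, the 24-hydroxylase Cyp24a1 15.1 in PNA and 15.9 in control, and the retinoic acid hydroxylase Cyp26a1 14.4 in PNA and 19.1 in control. The vitamin D receptor Vdr lay near the floor, with 35.4 in PNA and 29.4 in control ovaries. Of 9 vitamin D partners measured, 5 lay above the floor and 1 was lower, the calcium-binding protein S100g, with 32.3 in PNA and 110.37 in control ovaries (-1.77). Cyp20a1, an orphan enzyme with no settled substrate, gave 556.65 in PNA and 567.26 in control ovaries (-0.03), and its second bright probe set gave 0.07.

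**Figure D3:**
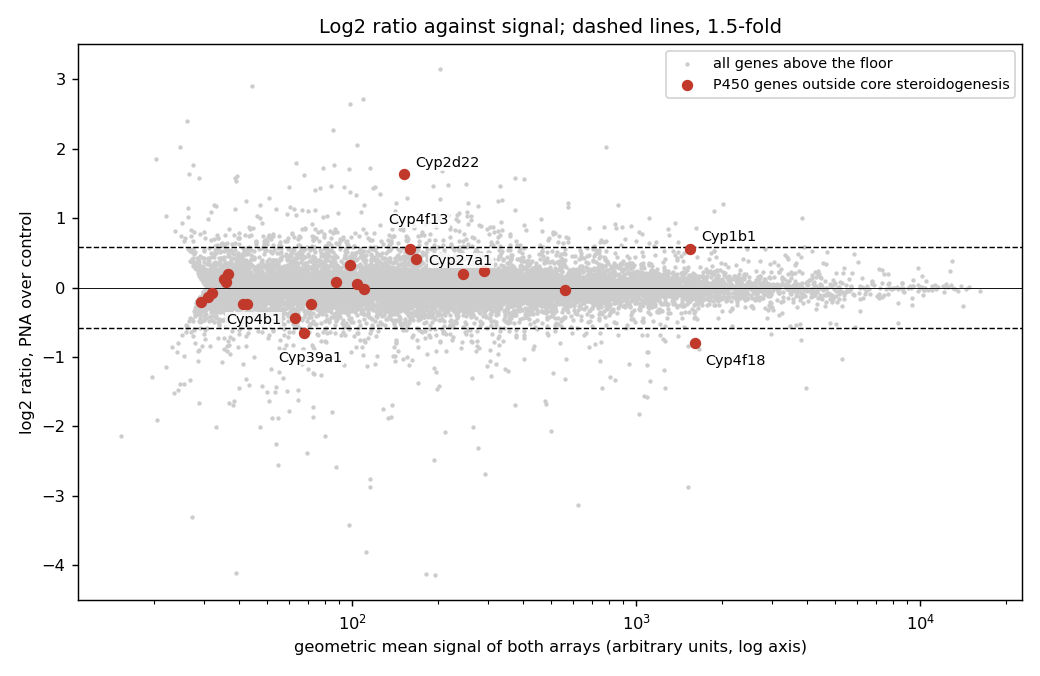
Log2 ratio of PNA over control against the geometric mean signal of both arrays (log axis), all 14116 genes above the floor in grey and the 23 P450 genes in red; dashed lines mark 1.5-fold. Cyp2d22 lies above the upper line, Cyp4f18 and Cyp39a1 below the lower one, and Cyp1b1 and Cyp4f13 just inside the upper one.

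Agreement between probe sets gave the only check within an array. For 7 P450 genes 2 probe sets lay above the floor on both arrays, and the median difference between their log2 ratios was 0.09, the same as over 5996 genes with 2 such probe sets. The signs agreed for Cyp1b1, Cyp2d22, Cyp4f16, Cyp4v3 and Cyp7b1, and differed for Cyp20a1 and Cyp2j6, whose ratios were small. Cyp4f18 and Cyp39a1 had no second probe set above the floor. Probe sets of 1 gene on 1 array share the RNA, so this agreement says nothing of differences between mice.

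Annotation terms are given here as a description only, since terms that belong to P450s as such are bound to follow the symbols. All 62 genes whose molecular function was annotated in the copy used carried the terms heme binding, iron ion binding and monooxygenase activity. The term aromatase activity was attached to 26 of them, and to 27 genes of all 14236 annotated; it is given to many drug-metabolising P450s in this annotation and does not mark estrogen synthesis. By cellular component, 44 of 55 annotated genes were placed in the endoplasmic reticulum membrane and 12 in mitochondria.

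The enzymes that pass electrons to P450s showed no gene past 1.5-fold. All 9 electron donors measured lay above the floor, with 0 higher or lower, log2 ratios of -0.21 to 0.23 and a median of -0.12. P450 reductase (Por) gave 350.46 in PNA and 391.46 in control ovaries (-0.16), and the mitochondrial ferredoxin Fdx1 had a log2 ratio of 0.23. Of 13 genes of haem synthesis and breakdown, 1 was higher and the median was 0.07. That gene was Alas2, the first enzyme of haem synthesis in red blood cell precursors, with 108.96 in PNA and 49.96 in control ovaries (1.12), whereas Alas1, the form of other tissues, had a log2 ratio of 0.22.

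Receptors that switch P450 genes on in liver were partly undetected. Of 24 measured, 19 lay above the floor with a median log2 ratio of 0.07, and Nr1i2 (PXR) and Nr1i3 (CAR) were under it. There were 2 lower genes: the bile acid receptor Nr1h4 (FXR), with 76.2 in PNA and 167.19 in control ovaries (-1.13), and Arnt2, a partner of AHR-type proteins, with 208.58 in PNA and 315.21 in control (-0.60). Ppara had a log2 ratio of 0.53 and Arnt of -0.02.

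The list of conjugation and other drug-metabolising enzymes, which also holds oxidases, reductases and hydrolases, had 3 higher and 0 lower genes among the 31 of 41 above the floor, with a median log2 ratio of 0.07. The higher genes were the glutathione transferases Gsta3, with 129.06 in PNA and 61.1 in control ovaries (1.08), and Gstt1, with 429.25 in PNA and 253.45 in control (0.76), and Fmo1, a flavin monooxygenase that oxidises its substrates without conjugating them, with 223.15 in PNA and 121.06 in control (0.88). Of P450 enzymes with other symbols, prostacyclin synthase Ptgis gave 713.86 in PNA and 584.84 in control ovaries (0.29) and thromboxane synthase Tbxas1 69.8 in PNA and 59.97 in control (0.22). Of the 5 core genes left out by the rule, all lay above the floor, 2 were higher and 0 were lower.

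**Figure D4:**
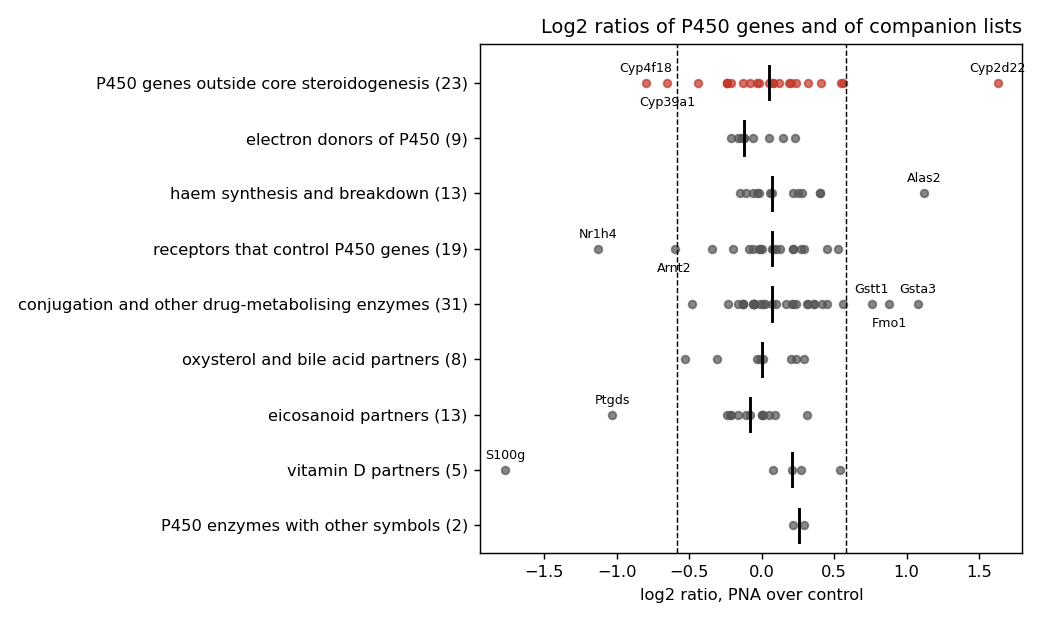
Log2 ratio of PNA over control for the 23 P450 genes above the floor (red, top) and for 8 lists of related genes (grey), 1 point for each gene, with the number above the floor after each name; black bars are medians and dashed lines 1.5-fold. Points past 1.5-fold are named, and the medians of all rows lie between -0.12 and 0.25.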

How the data were processed

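RNA of PNA and control ovaries was hybridised to 1 Affymetrix Mouse Genome 430 2.0 array for each group. The authors deposited a linear signal intensity for each of 45101 probe sets and log2 values centred over both arrays, whose ratios equalled those of the linear signals within 2e-06. A value table on the log2 scale was deposited too and gave the same counts. The sources used here do not name the program behind these signals. Columns holding the authors' own fold changes were not used. Arrays have no sequencing depth, and precision is limited by having 1 array a group.

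After 64 control probe sets were left out, ratios were computed in Python 3.11.15 (numpy 2.4.6, pandas 2.3.3, statsmodels 0.14.6, matplotlib 3.10.9). The brightest single-symbol probe set by mean log2 signal stood for a gene; 89 probe sets gave the 68 P450 genes, 51 of them with 1 probe set, and 6 rows joining a P450 symbol to others were left out. Of the 68 alignments 67 overlapped the gene of that name in GRCm38.p6 (not Cyp4a31), and RefSeq names Cyp2c44 as Cyp2c23. Every member above the floor is named. Of 9 companion lists at most 4 genes past 1.5-fold are named; other genes were named for their role after their values were seen. The members and lists were chosen with earlier results of these data known. RefSeq promoters were found for 48 members; Cyp11b1, Cyp21a1, Cyp2d13, Cyp2d22, Cyp2u1, Cyp39a1 and Cyp7b1 are named only. Steps were tested on simulated data. Alternatives were median scaling, quantile normalization, loess (fraction 0.3), an offset of 50, both log2 tables, other floors, 2-fold, and other ways to join probe sets.

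Of the 14 marker lists, granulosa and theca had 1 higher gene each (Amh and Cyp17a1), corpus luteum 1 lower (Lhcgr), macrophage, liver and adrenal 1 higher each, neutrophil 4 and surface epithelium 3 higher, and oocyte, lymphocyte, endothelial, adipocyte, kidney and oviduct 0. Among the higher genes, Ngp and Ahsg were above the floor on the PNA array only.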

Additional observations from a re-analysis of the deposited data

Results flagged for a closer look

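A signal outside the genes described came from the core genes that the rule left out. One probe set of Cyp51, the lanosterol demethylase of cholesterol synthesis, gave 580.08 on the PNA array and 117.83 on the control array, a log2 ratio of 2.30, although the brightest probe set of the same gene had a log2 ratio of 0.23 and the remaining one of -0.28. It drew attention because 1 of 3 probe sets of a gene departed from the others. This probe set is named in no comparison above, though it counts among those behind the medians, floors and probe set differences over all genes. No replicate array exists to test it.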

How the results depend on the processing

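Cyp2d22 kept its direction and stayed at least 2-fold higher under each alternative. The signals of both arrays were already alike as deposited, so median scaling, quantile normalization and loess could move its ratio little, and their agreement is a weak check. Its log2 ratio was 1.61 (median scaling), 1.62 (quantile normalization), 1.64 (loess), 1.39 (mean of all probe sets) and 1.22 (offset of 50). Both log2 tables hold the same ratio, and other floors or the 2-fold criterion leave it unchanged. Counting each probe set on its own gave 2 higher values, both of Cyp2d22. The count of lower genes was 2, and became 1 with an offset of 50 on both signals, which left Cyp39a1 at -0.37 because an offset shrinks ratios of dim genes. It became 1 with the mean of all probe sets, which left Cyp4f18 at -0.43 since its second probe set is dim, and 0 at 2-fold. The median of the P450 genes ranged from -0.05 (mean of all probe sets) to 0.19 (floor at the 60th percentile), so its sign is not settled. The offset of 50 gave 158 higher and 161 lower genes over the whole array, against 352 and 305 without it. For the receptor list, the count of lower genes was 1 with the offset or the mean of all probe sets. No paired analysis was possible because each group has 1 array. The number of arrays limits every value: differences between mice, hybridisations and RNA extractions cannot be told apart from PNA, and signals near the floor carry little above background.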
